A study of Mus musculus with 6 samples.

Results

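Insulin-like growth factor 1 (Igf1), its receptor Igf1r and 6 IGF-binding proteins, Igfbp2 to Igfbp7, were followed through every cell type of mouse lung and cerebral cortex. The 8 genes were chosen by symbol out of 56884 genes in the tables, and all 8 were found in each of 6 single-cell libraries. Pups carried loxP-flanked alleles of Bdnf, Hgf or Nodal, in separate crosses, and the inducible pericyte knockouts (iPCKO) carried in addition the tamoxifen-dependent Pdgfrb(BAC)-CreERT2 transgene, which is active in pericytes and also in vascular smooth muscle cells (vSMC). The lox/lox control mice lacked this transgene, and tamoxifen (50 µg a day, 3 injections between postnatal day 1, P1, and P3) is listed in the labels for the samples of both genotypes. The libraries were Bdnf lox/lox control and Bdnf iPCKO lung, Hgf lox/lox control and Hgf iPCKO lung, all at P21, and Nodal lox/lox control and Nodal iPCKO cortex at P12. Each genotype is 1 library that pools the cells of 2 mice. Lung cells had been depleted of CD45+ and Ter119+ cells, so immune cells are few by design, and the cortex was freed of meninges and myelin before loading.

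IGF1 is a secreted growth factor made by the liver for the circulation and by many mesenchymal cells for their neighbours. It signals through the IGF1 receptor, a tyrosine kinase closely related to the insulin receptor, which feeds insulin receptor substrate adaptors and the PI3K and MAP kinase routes. The IGF-binding proteins hold IGFs in the extracellular space, lengthen their half-life and either restrain or deliver them, until proteases such as PAPP-A or HTRA1 cut the carrier. IGFBP7 binds IGFs weakly and is known as a protein of vascular basement membranes. In lung, mesenchymal IGF1 is known for its part in alveolar growth, and in brain IGF1 comes from neurons, microglia and cells of the vessel wall during postnatal development.

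On GRCm39 the ligand gene Igf1 lies on chromosome 10 (87693642 to 87772904, plus strand) and the receptor gene Igf1r on chromosome 7 (67601518 to 67883416, plus strand). Igfbp2 (chromosome 1, 72863606 to 72891634, plus strand) and Igfbp5 (chromosome 1, 72897091 to 72914043, minus strand) are neighbours separated by 5.457 kb. Igfbp3 (7156086 to 7164179, minus strand) and Igfbp4 (98932064 to 98945218, plus strand) are both on chromosome 11 but far apart. Igfbp6 is on chromosome 15 (102052697 to 102057953, plus strand) and Igfbp7 on chromosome 5 (77493130 to 77555931, minus strand). Only Igf1r overlaps another annotated gene on its own strand, so reads there could be shared. All positions come from the Gencode vM39 annotation, whose gene identifiers match the deposited ones apart from the version.

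Barcodes with at least 1500 UMIs, or at least 700 in the shallower Hgf libraries, were kept: 14622 to 24311 per lung and 3237 and 5008 in control and iPCKO cortex. Their median depth ran from 2841 UMIs in Hgf iPCKO lung to 7118 in Bdnf control lung, and was 7706 and 7791.5 in cortex. Between 81.1% and 90.7% of barcodes were assigned to a cell type from its marker genes, and each name below stands for such marker-gated cells. Levels are given in CPM, the UMIs of a gene per 1000000 UMIs of that cell type in that library, with exact Poisson 95% intervals where they matter. A level depends on how cells are named: grouped by clustering, 15 of 55 levels of the members in Bdnf control and 19 of 69 in Bdnf iPCKO lung moved by over 1.5 times, as did 8 of 49 and 8 of 43 in the Hgf lungs and 2 of 31 and 1 of 28 in cortex. The assay counts 3' ends, so CPM compares genes per transcript. Between any pair of libraries 0.649% to 3.03% of the smaller library's barcodes were shared. Nodal was found with 187 UMIs in control and 0 in iPCKO cortex pericytes, and Hgf at 142 and 26.3 CPM in Hgf control and iPCKO lung pericytes; Bdnf, at 5 and 3 UMIs, was too rare in lung pericytes for a check, and 3' counts of a transcript outside the deleted part would check nothing. Pdgfrb in pericytes was higher in each iPCKO library than in its control (690 and 2251 CPM for Bdnf, 1270.2 and 3970 for Hgf, 860 and 2155 for Nodal). The transgene carries a Pdgfrb BAC, and its part in this difference was not tested.

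Igf1 was a product of fibroblasts and myofibroblasts in the lung. In adventitial fibroblasts, the cells of vessel and airway cuffs, it reached 535 CPM in Bdnf control, 366 in Bdnf iPCKO, 425 in Hgf control and 146 in Hgf iPCKO lung. Myofibroblasts, the contractile cells of the alveolar septa, held 476, 631, 413 and 69.9 CPM in the same order. These were the highest cell types in all 4 lungs, and in Hgf control their intervals overlap (397 to 455 CPM against 338 to 499). Matrix fibroblasts came next, with 174 CPM in Bdnf control, 102 in Bdnf iPCKO and 57.4 in Hgf control. Together, adventitial fibroblasts and myofibroblasts supplied 64.4% and 24.1% of the Igf1 UMIs of all gated cells in Bdnf control lung, and 80.4% and 10% in Hgf control lung. Lung pericytes held 1 Igf1 UMI in 99 cells of Bdnf control and none in the 124, 85 and 231 cells of Bdnf iPCKO, Hgf control and Hgf iPCKO, which allows up to 7.72, 18.5 and 7.88 CPM (3 UMIs of the cell type's total, for counting error only). Airway and alveolar epithelium stayed at or below 5.25 CPM in every lung.

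**Figure D1:**
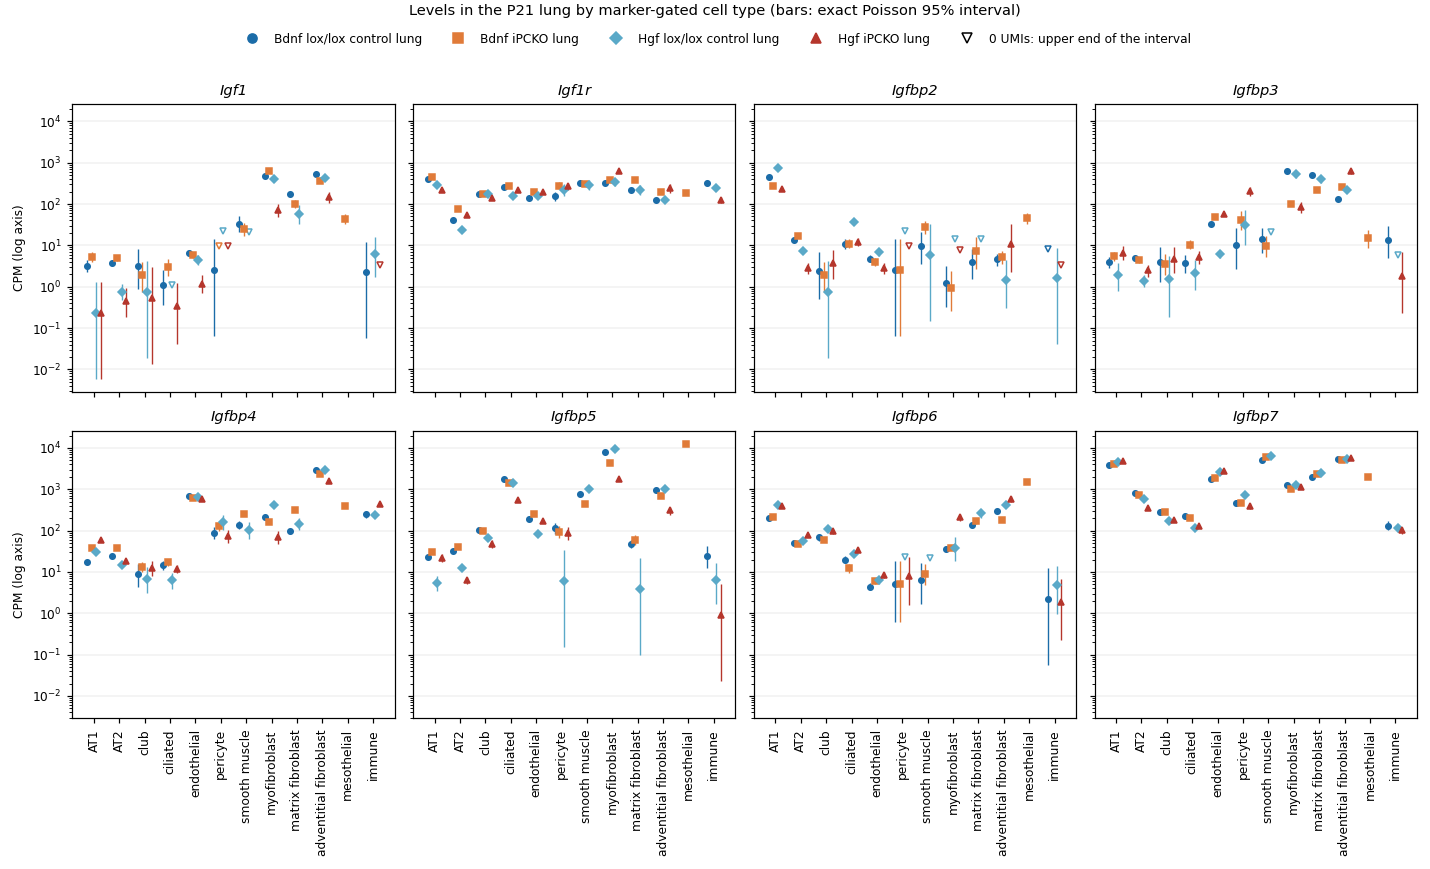
Level of the 8 genes (CPM, log axis), 1 panel per gene, in each lung cell type with at least 50 cells; points are libraries, bars exact Poisson 95% intervals, and open triangles the upper end of the interval at 0 UMIs. Igf1 stands out in adventitial fibroblasts and myofibroblasts, Igfbp2 in AT1 cells, and Igfbp5 in myofibroblasts and ciliated cells. Igfbp7 is high in adventitial fibroblasts, smooth muscle cells and AT1 cells, and lower in pericytes. Endothelial cells are shown as a whole, and their subtypes differ in Igfbp7.

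The receptor Igf1r was broad, and only in Hgf iPCKO lung did a cell type stand far above the others: myofibroblasts there held 647 CPM (578 to 723) and pericytes, the next, 273 (223 to 331). Alveolar type 1 (AT1) cells, the flat cells of gas exchange, held 400 CPM in Bdnf control, 446 in Bdnf iPCKO, 288 in Hgf control and 222 in Hgf iPCKO lung. Myofibroblasts held 317, 378, 336 and 647 CPM, and smooth muscle cells 319, 310 and 294 in the lungs with at least 50 such cells. In Hgf control the intervals of myofibroblasts, smooth muscle cells and AT1 cells overlap in turn, so their order is not fixed there. Lung pericytes held 154 CPM (118 to 197), 278, 222 and 273. Alveolar type 2 (AT2) cells, the surfactant makers, were lowest in all 4 lungs, at 41.8, 75.3, 23.5 and 55.7 CPM. Barcodes without a cell, which carry free RNA and nuclear debris, held 494, 637, 416 and 543 CPM of Igf1r in the same order of lungs. This was more than every cell type above, except the myofibroblasts of Hgf iPCKO lung. Their level of Igf1 was at most 25.8 CPM in the free RNA of the lungs.

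Among the binding proteins, Igfbp2 was the most selective in the lung. AT1 cells held 464 CPM in Bdnf control, 278 in Bdnf iPCKO, 735 in Hgf control and 237 in Hgf iPCKO lung. AT1 cells supplied 71.9% to 88.1% of the Igfbp2 UMIs of gated cells, and no other lung cell type with 50 cells or more passed 45.4 CPM. In AT1 cells thinned to 1500 UMIs each, 40.3%, 24.4%, 56.9% and 28.5% had an Igfbp2 UMI in the same order (76%, 45.7%, 77.3% and 41.8% at full depth), with 0 to 164 shallower cells per library left out. Smooth muscle cells, at 9.46, 27.3 and 5.76 CPM of Igfbp2 in Bdnf control, Bdnf iPCKO and Hgf control against 17.2, 14.4 and 31.7 in free RNA, showed 0% to 1.85% after thinning in the lungs with at least 50 such cells, at median depths of 2720 to 4445 UMIs against 2973 to 7900 in AT1 cells.

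Igfbp3 was highest in fibroblasts and myofibroblasts of the control lungs. Myofibroblasts held 618 CPM in Bdnf control and 521 in Hgf control lung, matrix fibroblasts 514 and 394, and adventitial fibroblasts 134 and 220. Of the endothelial cells (ECs), arterial ECs were highest in Bdnf control, with 63.3 CPM, and held 8.76 CPM in Hgf control. In Hgf control the intervals of myofibroblasts (437 to 617) and matrix fibroblasts (322 to 478) overlap, so their order is not fixed there. Smooth muscle cells and pericytes were low in both controls, at 14.2 and 10.1 CPM in Bdnf control and at 0 and 30.8 CPM in Hgf control.

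Igfbp4, the carrier cleaved by PAPP-A, was high in adventitial fibroblasts and, within the endothelium, in arterial and lymphatic ECs. Adventitial fibroblasts held 2850.3 CPM in Bdnf control, 2359 in Bdnf iPCKO, 2982 in Hgf control and 1553 in Hgf iPCKO lung. Arterial ECs held 1736, 1814, 2229 and 2248 CPM, below adventitial fibroblasts in the first 3 lungs and above them in Hgf iPCKO, where the intervals are 2178 to 2320.04 and 1409 to 1708. Aerocytes (aCap), the large capillary cells of gas exchange, stood at 97.3, 87.3, 63.6 and 69.8 CPM, and general capillary (gCap) cells at 480.2, 416, 423 and 313. Venous ECs, at 520 CPM in Bdnf control, 457 in Bdnf iPCKO, 392 in Hgf control and 439 in Hgf iPCKO, stood near gCap cells. Every arterial interval lay above every gCap interval, and every gCap interval above every aCap interval.

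Igfbp5, a carrier that binds extracellular matrix, was most abundant in myofibroblasts and in the mesothelium. Myofibroblasts held 7866 CPM in Bdnf control, 4249.9 in Bdnf iPCKO, 9196 in Hgf control and 1779 in Hgf iPCKO lung. Ciliated cells were the only epithelial cells with a high level, at 1743, 1406, 1445 and 536 CPM. Mesothelial cells, counted in number only in Bdnf iPCKO lung (130 cells), reached 12676 CPM there. Among ECs, arterial (287 to 472 CPM) and venous cells (173 to 689 CPM) stood above aCap (2.97 to 26.8 CPM) in each lung.

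Igfbp6, which prefers IGF2, was spread over AT1 cells, fibroblasts and, at a lower level, club cells of the airway and AT2 cells. AT1 cells held 199.5, 214, 419.5 and 388 CPM, in the order Bdnf control, Bdnf iPCKO, Hgf control and Hgf iPCKO. Adventitial fibroblasts held 291, 184, 424 and 578 CPM, and in Hgf control their interval overlaps that of AT1 cells. Matrix fibroblasts held 133, 172 and 260 CPM in Bdnf control, Bdnf iPCKO and Hgf control lung. Club cells held 68.4, 59.8, 112 and 96.6 CPM in the 4 lungs. AT2 cells, at 51.2, 47.9, 55.5 and 78.3 CPM, supplied 37.2%, 29.9%, 34.3% and 33.3% of the Igfbp6 UMIs of gated cells. The free RNA held 27.0, 30.0, 35.6 and 44.4 CPM of Igfbp6 in the same order. Mesothelial cells of Bdnf iPCKO lung held 1524 CPM. ECs as a whole and pericytes stayed at or below 8.45 CPM in every lung.

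Igfbp7 was the most abundant of the 8 genes in most lung cell types. In aCap cells it was higher than in any other lung cell type, with 7518 CPM in Bdnf control, 7863 in Bdnf iPCKO, 8865 in Hgf control and 10183 in Hgf iPCKO lung. gCap cells, which lie in the same capillaries, held 977, 898, 515 and 724 CPM, and venous ECs 186, 290.5, 146 and 253. The free RNA held 787, 853, 717 and 680 CPM of Igfbp7 in the same order, more than venous ECs in each lung. In aCap cells Igfbp7 made up 98.4% to 99.2% of the UMIs of the 6 binding proteins. In arterial ECs Igfbp4 led instead with 55.3% to 77.3%, in ciliated cells Igfbp5 with 73.6% to 88.3%, and in myofibroblasts Igfbp5 with 54.3% to 80.4%. Lung pericytes held 461, 473, 739.9 and 394 CPM of Igfbp7, less than AT1 cells (3769.7 to 4947), adventitial fibroblasts (5077 to 5709) and smooth muscle cells (5145 to 6233 in the lungs with at least 50) in every lung.

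**Figure D2:**
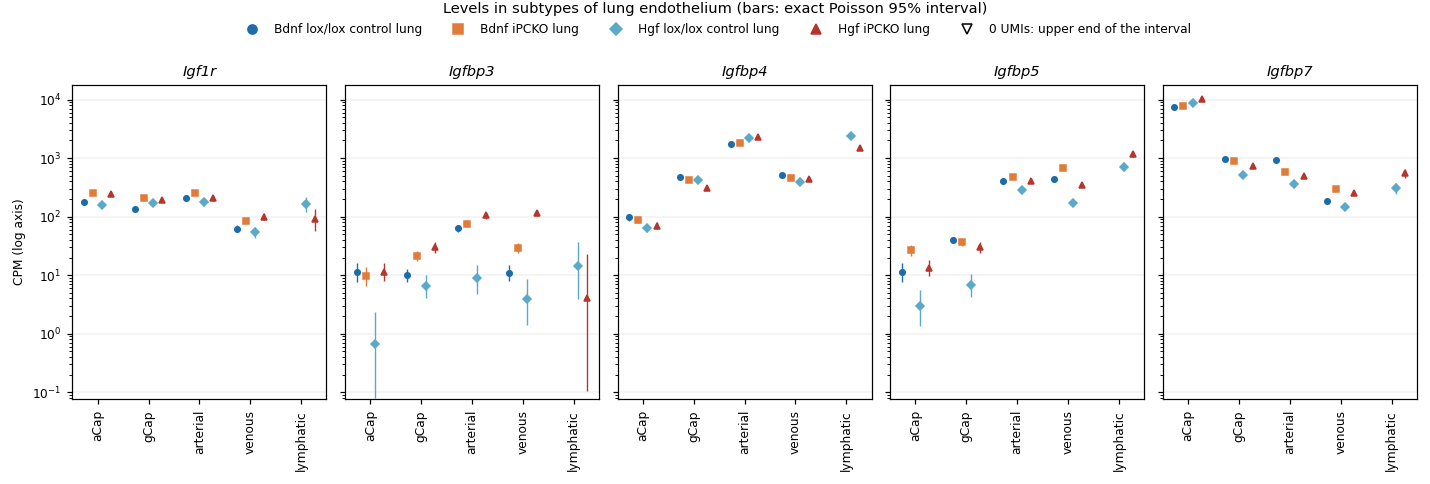
Level of Igf1r, Igfbp3, Igfbp4, Igfbp5 and Igfbp7 (CPM, log axis) in endothelial subtypes with at least 50 cells; points are the 4 lung libraries and bars exact Poisson 95% intervals. Igfbp7 is highest in aCap cells in each library, Igfbp4 is higher in arterial than in capillary cells, and venous Igfbp3 reaches 116 CPM in Hgf iPCKO against 3.9 CPM in Hgf control lung.

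In the cortex the ligand came from few cells. Neurons, of which this vessel-oriented preparation kept 65 and 204, held 161 CPM of Igf1 in Nodal control and 126 in Nodal iPCKO, with UMIs in 13 of the 65 and 38 of the 204 cells. Fibroblasts held 95.2 and 21.6 CPM and microglia 33 and 11.3 CPM. The gate for microglia took in 40 and 33 border macrophages, whose Igf1 was the highest of the tissue, as given below. The free RNA held 10.1 and 11.2 CPM of Igf1. Pericytes held 6.29 and 2.61 CPM, from 9 and 6 UMIs, and vSMC held no Igf1 UMI in 89 and 111 cells, which allows up to 3.64 and 3.6 CPM by the same limit of 3 UMIs. The receptor showed the opposite distribution: ECs held 503 CPM of Igf1r in control and 469.6 in iPCKO cortex, and supplied 81.1% and 81.6% of its UMIs. Within the endothelium, capillary cells held 683 and 666.5 CPM, venous cells 217 and 268 and, in iPCKO, arterial cells 184.5. Every other cortical cell type stood at or below 154 CPM. The free RNA of the cortex libraries held 932 and 880 CPM of Igf1r, more than ECs as a whole and their subtypes.

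The binding proteins divided the cortex into compartments. Igfbp2 belonged to fibroblasts (655 and 564 CPM in control and iPCKO) and astrocytes (258 and 306), with vSMC at 102 and 124. Igfbp3 belonged to ECs, which supplied 95.1% and 95% of its UMIs at 113 and 184 CPM. Igfbp5 and Igfbp6 were highest in fibroblasts, at 2441 and 2098 CPM for Igfbp5 and 391 and 486 CPM for Igfbp6. Fibroblasts supplied 92.4% and 90.8% of the Igfbp6 UMIs but 62.8% and 63.3% of those of Igfbp5, of which astrocytes, at 179 and 103 CPM, supplied 30.4% and 22.5%. Igfbp4 was spread over fibroblasts (851 and 765 CPM), microglia (312 and 311) and ECs (292 and 275). Igfbp7 was vascular: vSMC held 6978 and 9474 CPM, pericytes 5431 and 8275, and ECs 3181 and 4823, whereas astrocytes, neurons and microglia held 20.3 to 40.5 CPM. In cortex pericytes Igfbp7 made up 96.9% and 98.2% of the UMIs of the 6 binding proteins.

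**Figure D3:**
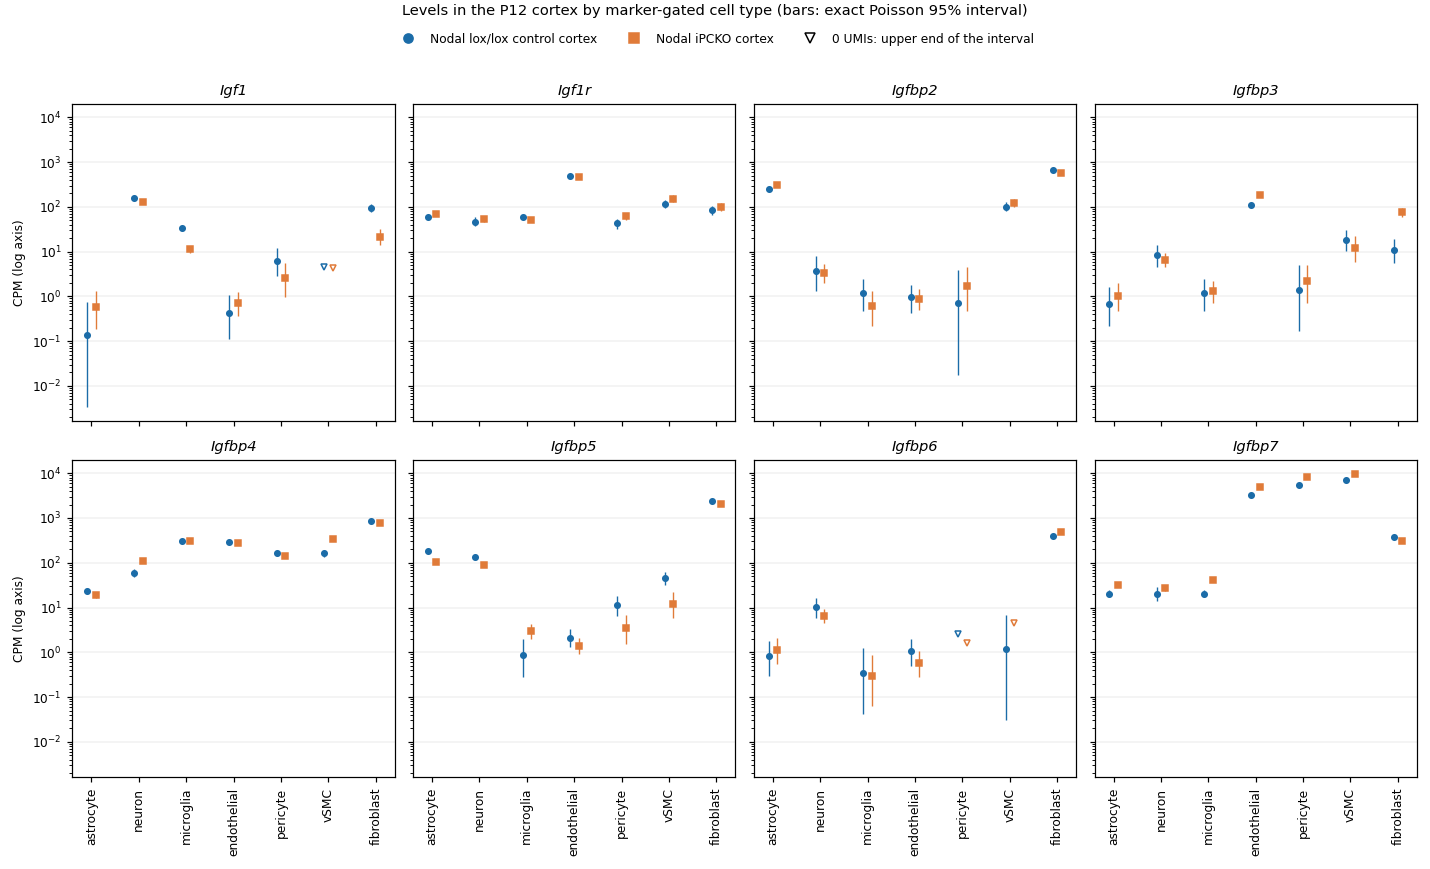
Level of the 8 genes (CPM, log axis) in the cortical cell types in control (circles) and Nodal iPCKO cortex (squares), with bars for exact Poisson 95% intervals and open triangles for the upper end of the interval at 0 UMIs. Igfbp7 is highest in vSMC, pericytes and ECs, Igf1r in ECs, and Igfbp2, Igfbp5 and Igfbp6 in fibroblasts.

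Pericytes of the 2 organs were compared next, each control lung with control cortex. Differences were called when the CPM values were at least 2-fold apart and the exact 95% interval of their ratio left out equality, provided that the 2 libraries together held 50 or more UMIs of the gene; with 1 library per genotype this interval covers counting error only, and no p-value can be given. Organ, age, dissociation and library differ together and cannot be told apart. With Bdnf control lung, 2 of 4 members tested were called higher and 1 lower in lung pericytes, where 15.9% and 19% of all genes were called higher and lower. With Hgf control lung, 1 of 3 was called higher and 1 lower, beside 12.3% and 14.9% of all genes. Igfbp7 was at 461 and 739.9 CPM in the lungs and 5431 CPM in cortex, a log2 ratio of -3.56 (-3.78 to -3.35) and -2.88 (-3.15 to -2.62). Over 9 alternative settings, listed under processing below, these ratios ran from -4.64 to -1.86 and from -3.98 to -2.12, called in each. The free RNA of the same libraries held 787, 717 and 1031 CPM of Igfbp7, so that Bdnf control pericytes lay below it, the interval of Hgf control pericytes (613 to 885) took it in, and cortex pericytes lay above it. Every one of the 252 control cortex pericytes had an Igfbp7 UMI, also at 1500 UMIs per cell, where cortex astrocytes had one in 3.82%. In lung, 36.4% of pericytes in Bdnf control and 25.9% in Hgf control had one at that depth (47.5% and 34.1% unthinned), beside 22.1% and 12.5% of ciliated cells (55.8% and 38.7%), at median depths of 3665 and 1855 UMIs against 12979 and 8997. Igf1r went the other way, with 154 and 222 CPM in lung and 42.6 in cortex pericytes. Its log2 ratios were 1.85 (1.31 to 2.39) and 2.38 (1.74 to 3.0). Over the alternative settings they ran from 1.06 to 1.95 and from 1.06 to 2.64. Each of these 3 CPM levels lay below the free RNA of its library (494, 416 and 932 CPM). Igfbp5 was at 113 CPM in Bdnf control, 6.17 in Hgf control and 11.2 in cortex pericytes; it was called higher with Bdnf control only (3.34, 2.49 to 4.26), had too few UMIs for a call with Hgf control, and in Bdnf control its 45 UMIs lay in 6 of 99 cells. Igfbp4 was at 88.1, 160.3 and 163 CPM and was not called with either lung.

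The 2 control lungs, which share the organ and age but differ in floxed allele, litter and depth, gave a measure of how far libraries differ without the Cre transgene. Of 64 pairs of a member and a cell type that could be tested, 9 were called higher and 3 lower in Bdnf control than in Hgf control, against 5.96% and 3.76% of all pairs of a gene and a cell type. The median log2 ratio of the members was 0.00, and that of all genes 0.07. Igfbp5 alone gave 4 of the calls, in AT1 (22.8 and 5.38 CPM), AT2 (31.9 and 12.2), ECs (189 and 84.2) and matrix fibroblasts (47.5 and 3.83), each higher in Bdnf control. None of these 4 held in every alternative: the log2 ratio was 0.54 in AT1 and -0.40 in AT2 cells without Scrublet doublets, 0.65 in ECs under the stricter gate and 0.51 in matrix fibroblasts under clustering. Igfbp3 in ECs was at 32.3 and 6.36 CPM, a log2 ratio of 2.35 (2.02 to 2.69). Igfbp6 in AT1 cells was lower in Bdnf control (-1.07, -1.16 to -0.98). The other calls were Igf1 and Igfbp3 higher in AT2 cells, Igf1 higher in matrix fibroblasts (1.60), Igfbp4 higher (1.23) and Igfbp2 lower (-1.74) in ciliated cells, and Igfbp4 lower in myofibroblasts (-1.01); those of Igfbp3 in AT2 cells and of Igfbp4 were each lost in at least 1 alternative. For the main differences between a mutant and its control, the difference of the controls is given as well.

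In Bdnf iPCKO lung, the largest departures from the control lay in mesenchymal cells. Of 67 pairs tested, 3 were called higher and 2 lower, against 2.01% and 1.03% of all pairs of a gene and a cell type. The median log2 ratio was 0.09 for the members and 0.02 for all genes. Without Scrublet doublets, which were 8.93% of control and 2.71% of iPCKO barcodes, 10 were called higher. The automatic score cutoff was 0.237 in control and 0.389 in iPCKO, so these 2 shares rest on unlike cutoffs. No share of all pairs is given for that setting, so the 10 cannot be set against the 2.01%. All 5 differences called with doublets kept were larger than the difference between the 2 controls in the same cell type, which for Igfbp3 in ciliated cells rests on under 50 UMIs. Calls were picked for a 2-fold difference, which favours such a result. Of all 67 pairs tested, 29 were larger than between the controls. Igfbp3 in myofibroblasts had the largest, with 618 CPM (591 to 645) in control and 98.9 CPM (89.7 to 109) in iPCKO, a log2 ratio of -2.64 (-2.80 to -2.49), beside 0.25 between the controls. The share of myofibroblasts with an Igfbp3 UMI was 53% of 827 cells in control and 15.3% of 1343 in iPCKO, or 36.8% and 10.2% at 1500 UMIs per cell, while AT2 cells, which are not known to make it, showed 1.91% and 1.7% (0.451% and 0.342% thinned) at median depths of 8789 and 6262 UMIs against 3876 and 3024. Matrix fibroblasts moved the same way, from 514 to 222 CPM (-1.21, -1.45 to -0.98), beside 0.38 between the controls. Adventitial fibroblasts held 134 CPM in control and 264 in iPCKO, a log2 ratio of 0.98 that stayed under 2-fold. Igfbp3 was called higher in ciliated cells (3.74 and 10.5 CPM; 1.48, 0.70 to 2.35), both below the free RNA, which held 21.4 and 14 CPM.

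Myofibroblasts of Bdnf iPCKO kept their other members nearer to the control. Igf1 was 476 CPM in control and 631 in iPCKO, Igfbp4 was 209 and 163, and Igfbp5 7866 and 4249.9 CPM (-0.89), none of them called. Of the 6 markers that define these cells, none was called higher and 1 lower, and their summed level differed by -0.01 on the log2 scale. Cells were gated on these same markers, which limits how far the sum can move. Markers of AT1 cells summed to 676 CPM in control and 787 in iPCKO myofibroblasts, those of adventitial fibroblasts to 1593 and 1257, and those of club cells to 702 and 1227; their part in the result was not tested.

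Igfbp4 gave the other calls in Bdnf iPCKO lung. Matrix fibroblasts held 96.1 CPM (82.2 to 112) in control and 321 CPM (284 to 362) in iPCKO, a log2 ratio of 1.74 (1.46 to 2.03), beside -0.60 between the controls. In the same cells the 8 AT2 markers summed to 1088 and 3119 CPM and the 5 club cell markers to 683 and 1363, and their part in the result was not tested. AT1 cells held 17.2 and 37.6 CPM of Igfbp4 (1.13, 0.88 to 1.38), beside -0.83 between the controls, and both levels lay below the free RNA (118 and 113 CPM). In these AT1 cells the club cell markers summed to 482 and 1488 CPM and the AT2 markers to 1096 and 1801; their part was not tested. Neither direction held when cells were grouped by clustering, where the log2 ratios were -0.26 and -2.18. Igfbp2 in AT1 cells, at 464 CPM in control and 278 in iPCKO, differed by -0.74 and was not called. Igf1r was above the control in 9 of 10 cell types, with a median log2 ratio of 0.35 and no call; the free RNA of these libraries moved likewise, from 494 to 637 CPM. In pericytes, 99 and 124 cells, Igf1r was 154 and 278 CPM, and Igfbp7 461 and 473.

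Endothelial subtypes of Bdnf iPCKO lung, counted apart, gave 3 called differences among 23 pairs tested, all upward, where 1.18% of all pairs of a gene and a subtype were called higher and 1.38% lower. Igfbp3 in venous ECs was 11.1 CPM in control and 29.5 in iPCKO (1.42, 0.88 to 1.97), and in gCap cells 10.1 and 21.5 (1.08, 0.62 to 1.55). The gCap call was lost at the doubled UMI minimum (0.41), and the free RNA held 21.4 CPM in control, above these 2 control levels, and 14 in iPCKO. Igfbp5 in aCap cells was 11.3 and 26.8 CPM (interval of the log2 ratio 0.62 to 1.91), both below the free RNA (187 and 194 CPM). In arterial cells Igfbp3 was 63.3 and 74.9 CPM, with intervals that overlap. In ECs as a whole AT1 markers summed to 739 CPM in control and 1254 in iPCKO and club cell markers to 852 and 1410; their part in these results was not tested.

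Hgf iPCKO lung showed the widest departures. Of 52 pairs tested, 6 were called higher and 13 lower (11.5% and 25%), against 5.28% and 6.02% of all pairs. Of these 19 differences, 17 were larger than the one between the 2 controls in the same cell type, the exceptions being Igfbp5 in AT1 and Igfbp2 in ciliated cells. Calls were picked for a 2-fold difference, and of all 52 pairs tested 32 were larger than between the controls. The median log2 ratio of the members was -0.03, the same as that of all genes. Igf1 was lower in all 3 cell types that could be tested. Adventitial fibroblasts held 425 CPM (397 to 455) in control and 146 CPM (104 to 199) in iPCKO, a log2 ratio of -1.54 (-2.04 to -1.08), and myofibroblasts 413 CPM (338 to 499) and 69.9 CPM (48.4 to 97.6), a ratio of -2.56 (-3.17 to -1.99), beside 0.33 and 0.21 between the controls. Myofibroblasts with an Igf1 UMI fell from 47.8% of 113 cells to 9.23% of 271, and from 41.1% to 8.5% at 1500 UMIs per cell with 6 and 71 shallower cells left out; AT2 cells showed 0.189% and 0.148% (0.0875% and 0.0757% thinned) at median depths of 4804 and 3657 UMIs against 2245 and 1766. ECs held 4.47 and 1.19 CPM (-1.91), while the free RNA of these libraries held 8.37 and 1.47 CPM. The iPCKO library had 66 adventitial fibroblasts and the control 275, so these values rest on few cells. The 6 markers of adventitial fibroblasts summed to a log2 ratio of -0.67 with 1 called lower. In the same cells the 8 AT2 markers summed to 1977 CPM in control and 373 in iPCKO and the 5 club cell markers to 1236 and 2635; their part in the results for Igf1, Igfbp3 and Igfbp5 was not tested.

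Igfbp3 moved in opposite directions in different cells of Hgf iPCKO lung. Myofibroblasts went from 521 CPM (437 to 617) to 84.2 CPM (60.5 to 114), a log2 ratio of -2.63 (-3.17 to -2.11). In adventitial fibroblasts it was higher, 220 CPM in control and 614 in iPCKO (1.48, 1.22 to 1.74), and in pericytes likewise, 30.8 CPM (10.0 to 71.9) and 202 CPM (160 to 253), a ratio of 2.71 (1.43 to 4.38), beside -1.61 between the controls on under 50 UMIs. The pericyte values come from 5 UMIs in 4 of 85 control cells and 77 UMIs in 31 of 231 iPCKO cells. In these pericytes club cell markers summed to 555 CPM in control and 2022 in iPCKO, AT1 markers to 173 and 543, endothelial markers to 518 and 866 and AT2 markers to 1597 and 803; their part in the result was not tested. ECs held 6.36 CPM in control and 57.8 in iPCKO (3.18, 2.86 to 3.52), but the 2 controls differed by 2.35 there, and the free RNA held 8.70 CPM in control and 18.6 in iPCKO. In the ECs club cell markers summed to 707 and 1727 CPM, AT2 markers to 1279 and 656 and matrix fibroblast markers to 1519 and 567. The last sum includes Scn7a, which was high in endothelial barcodes, so it does not measure fibroblast RNA alone. Of 8 markers of ECs 1 was called lower (summed log2 ratio -0.40). The part of these markers in the result was not tested. Among endothelial subtypes, 4 of 23 pairs tested were called higher and none lower, against 3.8% and 5.41% of all pairs of a gene and a subtype. Venous ECs held 3.9 CPM of Igfbp3 in Hgf control and 116 in iPCKO (4.89, 3.75 to 6.35), beside 11.1 CPM in Bdnf control. Arterial ECs held 8.76 and 105 CPM (3.58, 2.80 to 4.48), beside 63.3 in Bdnf control, and gCap cells 6.57 and 29.8 CPM (2.18). The fourth call was Igfbp5 in gCap cells, at 6.9 and 29.8 CPM (2.11, 1.41 to 2.88), beside 40.4 CPM in Bdnf control and 99 and 108 CPM in the free RNA of the Hgf libraries. Of 381 control venous ECs 1.05% had an Igfbp3 UMI and of 561 iPCKO ones 22.6%, or 0.847% and 12% at 1500 UMIs per cell; AT2 cells had 0.447% and 0.74%.

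Of 35 pairs of the remaining carriers tested in Hgf iPCKO lung, 9 were called lower and 2 higher. Of all pairs of a gene and a cell type, 6.02% were called lower and 5.28% higher. The ratios of the remaining carriers lay below 0 in 19 and above 0 in 16 of the 35 pairs. In myofibroblasts Igfbp5 went from 9196 to 1779 CPM (-2.37, -2.48 to -2.26) and Igfbp4 from 421 to 69.9 CPM (-2.59, -3.19 to -2.02), whereas Igfbp6 went from 38.6 to 209.6 CPM (2.44, 1.5 to 3.54). Myofibroblasts of Bdnf control held 7866, 209 and 36.5 CPM of Igfbp5, Igfbp4 and Igfbp6. For Igfbp4 the 2 controls were themselves called apart there, as given above. Of the 6 myofibroblast markers none was called higher and 1 lower in Hgf iPCKO myofibroblasts, and their summed log2 ratio was -0.59. The lowest marker level was 143 CPM in Hgf control and 12.3 in Hgf iPCKO. Cells were gated on these same markers, which limits how far the sum can move. In Hgf myofibroblasts the markers of adventitial fibroblasts summed to 1447 CPM in control and 657 in iPCKO, those of pericytes to 401 and 113, of smooth muscle cells to 614 and 236, of AT2 cells to 1131 and 497 and of club cells to 641 and 1321. Their part in these results, and in those for Igf1 and Igfbp3 in the same cells, was not tested. Igfbp2 was lower in all 4 cell types tested: AT1 from 735 to 237 CPM (-1.63, -1.74 to -1.53, beside -0.66 between the controls), ciliated cells from 36.8 to 12.1 (-1.60), AT2 cells from 7.13 to 2.79 (-1.35) and ECs from 6.81 to 2.84 (-1.26); the free RNA held 31.7 and 13.1 CPM, near the ciliated level and above those of AT2 cells and ECs, and the AT2 call was lost under clustering (-0.07). In the AT1 cells 1 of 7 AT1 markers was called lower, club cell markers summed to 720 and 1458 CPM and AT2 markers to 1657 and 2579; their part in the result was not tested. Ciliated cells went from 1445 to 536 CPM of Igfbp5 (-1.43, -1.50 to -1.37). No marker of these cells was called, but the cells were gated on those markers. Adventitial fibroblasts went from 997.5 to 307 CPM of Igfbp5 (-1.70, -2.03 to -1.38), a direction that did not hold when cells were grouped by clustering (0.15). In pericytes Igfbp4 was 160.3 and 73.5 CPM (-1.12, -1.95 to -0.30), beside 119 and 108 CPM in free RNA, and the call was lost under clustering (-0.74). Igfbp5 in AT1 cells was called higher (5.38 and 21.9 CPM, 2.02), where the controls differed by 2.09, or by 0.54 without Scrublet doublets and 0.70 under clustering. Igf1r was called once, higher in AT2 cells (23.5 and 55.7 CPM; 1.24, 1.10 to 1.39), where the free RNA held 416 and 543 CPM 2 of 8 AT2 markers were called lower, and club cell markers summed to 838 and 1510 CPM, whose part was not tested; Igfbp7 was called in none of 9 cell types.

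**Figure D4:**
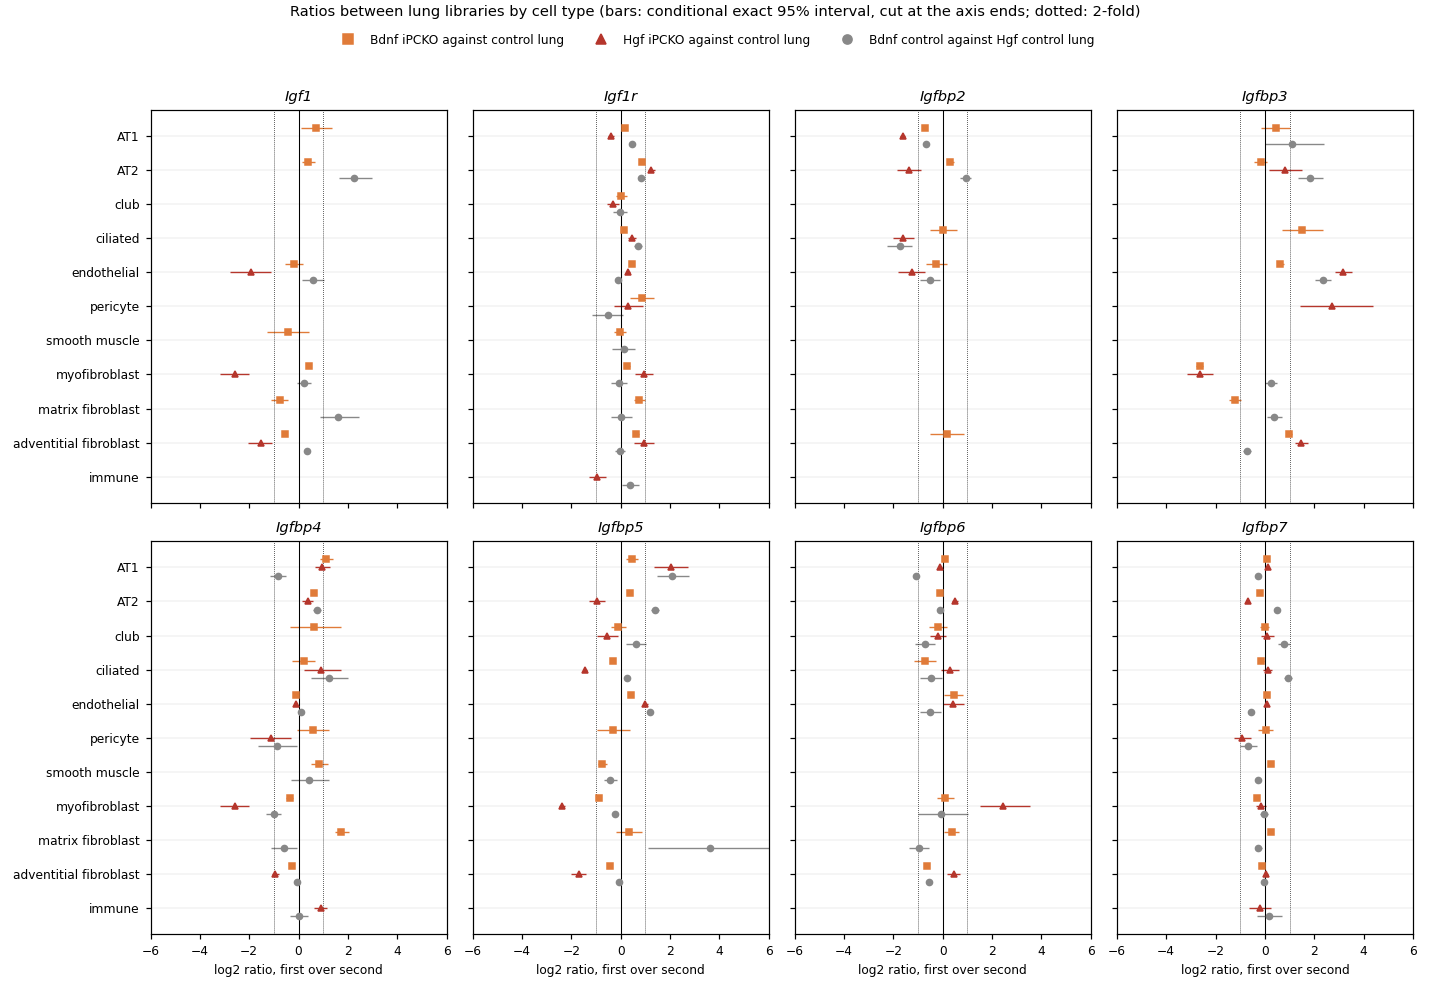
Log2 ratio of iPCKO to control (squares for Bdnf, triangles for Hgf) and of Bdnf to Hgf control (grey circles), with exact 95% intervals for counting error, for each member and lung cell type tested; dotted lines mark 2-fold. Igfbp3 in myofibroblasts lies at -2.64 for Bdnf and -2.63 for Hgf, with 0.25 between the controls.

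The Bdnf and Hgf comparisons have separate controls, so their values can be set side by side. Both iPCKO libraries carry the Cre transgene and both controls lack it. Loss of the floxed gene and presence of the transgene therefore cannot be told apart here. The pairs that follow are examples and not all pairs tested in both. Igfbp3 in myofibroblasts was lower in both mutants, by -2.64 and -2.63, and not between the controls. Igfbp5 in myofibroblasts was at -0.89 and -2.37. Igf1 in myofibroblasts was at 0.41 in Bdnf and -2.56 in Hgf iPCKO. Igfbp2 in AT1 cells was at -0.74 and -1.63, and Igfbp3 in adventitial fibroblasts at 0.98 and 1.48.

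In Nodal iPCKO cortex, 2 of 35 pairs tested were called higher and 2 lower, against 1.12% and 1.08% of all pairs, and the median log2 ratio was 0.18 for the members and -0.02 for all genes. There is no other control cortex to set beside these values. Igf1 in microglia was 33 CPM (28.5 to 38) in control and 11.3 CPM (9.3 to 13.6) in iPCKO, a log2 ratio of -1.55 (-1.90 to -1.20). The gate for microglia takes in border macrophages, the macrophages of perivascular and meningeal spaces, which held 513 and 332 CPM and made up 40 of 898 control and 33 of 1430 iPCKO cells. Microglia outside that group and outside the disease-associated state (DAM) held 6.95 CPM (4.89 to 9.58) and 4.18 CPM (2.88 to 5.87), with intervals that overlap. The free RNA of these libraries held 10.1 CPM (4.86 to 18.6) and 11.2 CPM (6.87 to 17.4) of Igf1, near the 11.3 CPM of all iPCKO microglia. Fibroblasts held 95.2 CPM (77.9 to 115) of Igf1 in 76 control cells and 21.6 CPM (14.1 to 31.7) in 90 iPCKO cells, a log2 ratio of -2.14 (-2.82 to -1.51), and 30.3% and 12.2% of them had a UMI, or 13.2% and 3.33% at 1500 UMIs per cell, while astrocytes had 0.141% and 0.502%. In these fibroblasts astrocyte markers summed to 1913 CPM in control and 1785 in iPCKO and pericyte markers to 1711 and 1163. Microglia markers summed to 282 and 346 CPM and endothelial markers to 208 and 228. The 6 fibroblast markers summed to a log2 ratio of -0.24 with none called. The part of these markers in the result was not tested. Neurons held 161 and 126 CPM of Igf1 and were not called.

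Igfbp3 in cortex fibroblasts was 10.8 CPM in control and 75.7 in iPCKO (2.81, 1.94 to 3.82), but its 91 UMIs in iPCKO lay in 5 of 90 cells, 59 of them in 1 cell. Grouping by clustering gave 0.38. In vSMC, a cell type that the Cre line also reaches, Igfbp4 was 163 CPM (136 to 193) in control and 339 CPM (300 to 380) in iPCKO, a ratio of 1.06 (0.75 to 1.36). The free RNA held 170 and 150 CPM of Igfbp4, so the control level was not above it. Among subtypes, 1 of 12 pairs tested was called higher and none lower, against 1.18% and 0.939% of all such pairs. Capillary ECs held 38 CPM (32.3 to 44.5) and 114 CPM (105 to 123) of Igfbp3, a ratio of 1.58 (1.32 to 1.84); 13.4% of 397 and 26.3% of 543 of them had a UMI, or 3.53% and 11.6% at 1500 UMIs per cell, while astrocytes had 0.707% and 1% (0% and 0.502% thinned). The free RNA of these libraries held 40.5 and 69.7 CPM of Igfbp3. Venous ECs held 109.5 and 111 CPM. Igfbp7 was above the control in 6 of 7 cell types with a median log2 ratio of 0.60 and no call: pericytes held 5431 and 8275 CPM (0.61), ECs 3181 and 4823 (0.60) and vSMC 6978 and 9474. The free RNA of the cortex libraries moved likewise, from 1031 to 1625 CPM.

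The other genes of the pathway, 19 in number, were tested in the same way. In Bdnf iPCKO lung 10 of 109 pairs were called higher and 1 lower, in Hgf iPCKO 9 and 6 of 72, in Nodal iPCKO 1 and 1 of 62, and between the controls 7 and 1 of 94. The shares of all pairs called higher and lower were 2.01% and 1.03% for Bdnf, 5.28% and 6.02% for Hgf, 1.12% and 1.08% for Nodal, and 5.96% and 3.76% for the controls. The other ligand, Igf2, was 3.2 and 13 CPM in Bdnf control and iPCKO AT1 cells, 9.03 and 24.5 in AT2 cells, 12.8 and 47.5 in ECs and 9.46 and 38.0 in smooth muscle cells, called higher in each; the free RNA held 6.51 and 22.2 CPM of Igf2, and its part was not tested. Igf2 was also called higher in Hgf iPCKO AT2 cells and adventitial fibroblasts. Irs2, the adaptor below the IGF1 and insulin receptors, was called higher in pericytes of both lung mutants, from 65.5 to 159.5 CPM in Bdnf (1.28, 0.60 to 2.00) and from 80.2 to 234 CPM in Hgf (1.54, 0.70 to 2.51). In the same pericytes club cell markers summed to 491 and 1418 CPM in Bdnf control and iPCKO, and AT1 markers to 264 and 756, and both also differed in Hgf as given above; their part was not tested. It was also called higher in ECs and club cells of Bdnf iPCKO and in AT1 cells and adventitial fibroblasts of Hgf iPCKO lung. The protease gene Pappa was called higher in matrix fibroblasts of Bdnf iPCKO (15.6 and 76.6 CPM) and, in Hgf iPCKO, in myofibroblasts (92.6 and 255 CPM), adventitial fibroblasts and AT1 cells, whereas Pappa2 was lower in myofibroblasts (150.5 and 55.5 CPM). Htra1 was lower in Hgf iPCKO ECs (18.4 and 4.29 CPM) and AT2 cells. The protease inhibitor gene Stc1 was lower in Bdnf iPCKO myofibroblasts (56 and 20.9 CPM), and higher in AT1 cells there and in vSMC of Nodal iPCKO. Stc2 was higher in AT2 cells of Bdnf iPCKO and adventitial fibroblasts of Hgf iPCKO lung. The adaptor genes Irs1 and Grb14 were lower in AT2 cells and Igf2r in AT1 cells of Hgf iPCKO lung, and Igfbpl1 was lower in neurons of Nodal iPCKO (38.6 and 2.19 CPM).

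In the controls Igf2 was the main ligand of the cortex vessel wall: fibroblasts held 10777 CPM and pericytes 2552, while pericytes of Bdnf and Hgf control lung held 45.3 and 49.3 CPM (log2 ratio of lung to cortex -5.82 and -5.69). Of the pathway genes in pericytes, 3 of 10 tested were called higher and 3 lower in Bdnf control lung than in cortex, and 1 and 4 of 9 in Hgf control lung, beside 15.9% and 19% of all genes with Bdnf control and 12.3% and 14.9% with Hgf control. The growth hormone receptor Ghr was called higher in both lungs (219 and 197 CPM against 24.5 in cortex), and Igf2, Stc1 and Shc1 lower in both. Insr and Irs1 were called higher with Bdnf control only and Grb10 lower with Hgf control only. The most abundant gene of each further role in both control lungs was Irs2 among the adaptors (372 and 355 CPM in myofibroblasts), Ghr in myofibroblasts (468 and 363 CPM), Stc1 among proteases and inhibitors (201 and 177 CPM in arterial ECs) and Igf2r among the receptors (159 and 228 CPM in pericytes). In control cortex these were Grb10 in fibroblasts (308 CPM), Ghr in astrocytes (56.5 CPM), Htra1 in astrocytes (1625 CPM) and Igf2r in pericytes (171 CPM). The further binding proteins Igfbp1, Igfals and Igfbpl1 stayed at or below 2.43 CPM in control lungs, and Igfbpl1 reached 38.6 CPM in control cortex neurons.

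Genes whose level followed a member across cell types were ranked by Pearson's r of log2(CPM + 1), over 42 points in lung and 14 in cortex; each point is a cell type in a library, points of 1 library share its depth and free RNA, and r is a description without a test. In lung, Igf1 was followed most closely by Negr1 (0.94), Gdf10 and Tnfsf13b, Igfbp3 by Arhgap20 (0.88), Abca8a and Fbln1, Igfbp4 by Cerk (0.91), Vim and Vat1, and Igfbp7 by Cped1 (0.88), Fbln5 and Cavin3. Igfbp2 was followed by Arf3 (0.85), Popdc3 and Zbtb8b, Igfbp5 by Map1b (0.81), Kank1 and Eno2, Igfbp6 by Efemp1 (0.81), Smad3 and Ppl, and Igf1r, the broadest member, by Ssbp3 (0.72), Clip1 and Zfand5. In cortex the values were higher with fewer points: Igf1 and Tcf20 (0.96), Bscl2 and Mc5r, Igf1r and Tbx1 (0.95), Wwc2 and Mal, Igfbp2 and Olfml1 (0.97), Scara3 and Cspg4b, Igfbp3 and Cd59a (0.97), Slc66a2 and Cavin2. Igfbp4 went with Gm13456 (0.96), Mir703 and Gm5835, Igfbp5 with Gdf10 (0.97), Sfrp1 and Scml4, Igfbp6 with Capn6 (0.99), Slc9b2 and Osr1, and Igfbp7 with Tbx3 (0.99), Cxcl1 and Tm4sf1. Among the members themselves, the highest values were 0.76 between Igf1 and Igfbp3 in lung and 0.84 between Igf1r and Igfbp3 in cortex.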

How the data were processed

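Whole-transcriptome libraries (BD Rhapsody, 1 per genotype, cells of 2 mice each) were made by the authors from lung and cortex. The deposited values are expected counts of UMIs per gene and barcode: the authors aligned reads with STAR 2.7.10a to GRCm39, divided reads of several genes by expectation maximisation, and removed no barcodes. Their methods and data statement name different Gencode releases.

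Here, barcodes with at least 1500 UMIs (700 for Hgf) were gated on marker genes: the highest class needed 0.2 of its reference level, 3 distinct markers, and no other class above 0.5 of it. The reference was the median of the 50 highest barcodes. Barcodes of 2 classes (1.56% to 10.1%) were left out as likely doublets, and Scrublet (scanpy 1.11.5) was an alternative. Its automatic score cutoff was 0.237 in Bdnf control lung and 0.389 to 0.476 in the other libraries. The 2 markers Scn7a and Sec14l3 were not scored, as they were high in endothelial and ciliated barcodes. Within each library the expected counts of a cell type were added up and rounded; cell types needed 50 cells. A pair of a gene and a cell type was tested with at least 50 UMIs and called at 2-fold with a 95% conditional exact (Clopper-Pearson) interval without equality; a count of 0 was set to 3 UMIs. Intervals cover counting error only. The script was tested on simulated data. Named genes were all 8 members, pathway genes called or most abundant in their role, and the 3 genes most like each member. Members and lists were chosen with earlier results of these data known.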

Additional observations from a re-analysis of the deposited data

How the results depend on the processing

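No paired analysis was possible because each genotype has 1 library and the labels give no shared replicate numbers, and for the same reason no replicate could be left out. Of 58 called pairs in all comparisons, endothelial and microglial subtypes included, rounding UMIs per barcode left all 58 called in the same direction. A minimum of 10 UMIs and calls at 1.5-fold are looser limits on the same counts, so they could not end a call. Leaving out barcodes above 15% mitochondrial UMIs and median-of-ratios scaling within the cell type each ended 1 call, a doubled UMI minimum 1 of 56, leaving out Scrublet doublets 2 of 57, and the stricter marker gate 2 of 41. Naming Leiden clusters from the same markers ended 6 of 43 calls and turned 4: Igfbp4 in Bdnf iPCKO AT1 cells (-2.18) and matrix fibroblasts (-0.26), Igfbp5 in Hgf iPCKO adventitial fibroblasts (0.15), and Igfbp5 in AT2 cells between the controls (-0.32), which also turned without Scrublet doublets (-0.40). The causes were not tested.

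Counts of called members moved by over 1.5 times as follows. No share over all genes is given for these settings, so the counts do not set the members against other genes. For Bdnf iPCKO, 3 higher became 5 under Leiden clusters and with at least 10 UMIs, 10 without Scrublet doublets and 12 at 1.5-fold, and 2 lower became 5 under Leiden clusters and 8 at 1.5-fold. For Hgf iPCKO, 6 higher became 11 under Leiden clusters and 13 at 1.5-fold. For Nodal iPCKO, 2 higher became 1 under the stricter gate, 0 under Leiden clusters and 8 at 1.5-fold, and 2 lower became 1 under the stricter gate and 4 with at least 10 UMIs. Between the controls, 9 higher became 5 under the stricter gate and without Scrublet doublets and 17 at 1.5-fold, and 3 lower became 5 without Scrublet doublets and 11 at 1.5-fold. For lung against cortex pericytes, 2 higher became 1 at the doubled UMI minimum and under the stricter gate and 4 under Leiden clusters with Bdnf control, 1 higher became 2 under Leiden clusters with Hgf control, and 1 lower became 2 with Bdnf control under the stricter gate, without Scrublet doublets, without high mitochondrial barcodes, under median-of-ratios scaling and at 1.5-fold. The cell type with the highest level was the same for 8 of 8 members in each library in 4 of 6 alternatives that change cells or rounding, and for as few as 4 in Nodal control and 3 in Hgf iPCKO under the stricter gate, which left some cell types with under 50 cells. Levels of a member in a cell type moved by over 1.5 times in 14 of 59 and 15 of 69 cases under the stricter gate and in 15 of 55 and 19 of 69 under Leiden clusters in Bdnf control and iPCKO, in 6 of 45 and 8 of 37, and 8 of 49 and 8 of 43, in Hgf control and iPCKO, and in at most 2 of 31 in a cortex library. The 85 to 252 pericytes per control library and the 66 adventitial fibroblasts of Hgf iPCKO limit what these data can show.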

Other observations

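Several small cell types, most of them with under 50 cells in at least 1 library, held high levels of a member. Border macrophages of the cortex, with 40 cells in Nodal control and 33 in Nodal iPCKO, had the highest Igf1 of that tissue, at 513 CPM (434 to 603) and 332 CPM (260 to 419). They also held 1078 and 931 CPM of Igfbp4. Disease-associated microglia numbered 189 in Nodal iPCKO and held 4.42 CPM of Igf1 and 272.5 CPM of Igfbp4 there. Arterial ECs of the cortex, 40 in control and 60 in iPCKO, had the highest Igfbp3 of the tissue, at 951 CPM (866 to 1043) and 1693 CPM (1592 to 1799.7).

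In lung, the 37 mesothelial cells of Bdnf control held 14430.1 CPM of Igfbp5 and 2608 CPM of Igfbp6, and the 130 of Bdnf iPCKO held 12676 and 1524 CPM. Lymphatic ECs, 69 in Hgf control and 56 in Hgf iPCKO lung, held 2389 and 1499 CPM of Igfbp4 and 704 and 1178 CPM of Igfbp5. The 27 matrix fibroblasts of Hgf iPCKO lung, too few for a comparison, held 758 CPM of Igfbp6, against 260 CPM in the 99 of Hgf control lung.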
